A study of Mus musculus with 4 samples.

Results

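Claudins and their partner genes at epithelial cell junctions were followed through 4 single-cell RNA libraries of mouse ventral prostate. The 8 genes were taken by name, of 17896 measured: the claudins Cldn3, Cldn4, Cldn7 and Cldn10, the tight junction genes Tjp1 and Ocln, the cadherin Cdh1, and Epcam. All 8 were listed in each of the 4 count tables. They were chosen with earlier results of these data known, so the shares of the 8 set against all genes carry no test. The mice were wild type (wt) C57BL6j. Hormone pellets were implanted, and the ventral lobes were taken for dissociation after 2 weeks. One group was labelled sham and the other te2, a treatment that the sources used here do not spell out; the animals' age was not given. Each group had 2 libraries, each made from the paired lobes of a single animal. The p-values of te2 against sham in a class therefore measure the spread between animals, with n = 2 a group. Where classes are compared with the library as a block, the p-values rest on the spread of class sums left after that block. With 2 against 2 an exact permutation test cannot fall below p = 0.333, and the tests below are edgeR's quasi-likelihood tests, which estimate the spread of a gene from many genes.

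An epithelium is sealed by tight junctions, belts near the apical surface in which claudin strands set which ions and solutes pass between the cells. Occludin (Ocln) is a further membrane protein of that belt, and ZO-1, the product of Tjp1, is the scaffold that ties the strands to actin. Below it lies the adherens junction, where E-cadherin (Cdh1) holds neighbouring cells together. Epcam, a membrane glycoprotein along the sides of epithelial cells, is known to bind claudin-7 and to protect claudins from breakdown. In the prostate, secretory luminal cells face the lumen, basal cells lie under them, and proximal luminal cells line the ducts near the urethra.

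Of 11245 cell barcodes, the 8091 with at least 500 unique molecular identifiers (UMIs, counted molecules) and at most 20% mitochondrial counts were kept, with a median of 1204 to 4075 UMIs a cell by library. The te2 cells were the deeper ones. Cells were classed by the share of their UMIs from a few genes that are not among the 8, in this order: luminal (Sbp and Spink1, at least 10%), basal (Krt5, Krt14 and Krt15, at least 0.2%), fibroblast (Col1a2, Col3a1 and Dcn, at least 0.3%) and proximal (Krt4, Wfdc2 and Cxcl17, at least 0.1%). Cells with at least 0.2% from Smr2 and Smr2l were kept apart, and none of the sham cells reached the class. The luminal class held 1057 and 1292 sham cells and 392 and 485 te2 cells. The basal class held 44 and 160 sham cells against 591 and 573 te2 cells, and the fibroblast class 237 and 98 against 86 and 132. The proximal class held 35 and 170 against 476 and 317 cells. The classes are ranges of a share: 10 of the 44 and 18 of the 160 sham basal cells lay near the threshold (just above it), and 7 of the 35 proximal cells of sham replicate 1 were in the class by 1 UMI. The class sums of the sham libraries were as small as 45286 UMIs (basal, sham replicate 1). The luminal genes Sbp and Spink1 made up a median of 3.27% and 3.50% of the UMIs of sham basal cells and 0.191% and 0.332% of those of te2 basal cells, and the ranges were alike in fibroblasts. Pairs of libraries shared few barcodes, 15 over all pairs.

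The 8 genes did not share a single pattern over the cell classes. Levels are given as CPM, the gene's share of all UMIs of the class in a library on the usual CPM scale, and are compared for 1 gene at a time. Epcam stood highest in proximal cells, at 1447 and 1677 CPM in sham and 2143 and 2290.1 in te2. In luminal cells Epcam read 520.5 and 503 in sham, in basal cells 177 and 338, and in fibroblasts 38.5 and 137. Those 4 sham classes did not overlap, but in te2 the luminal values of 1044 and 995 and the basal values of 1250.5 and 1019.7 did. Cldn3 and Cldn7 kept the order proximal, luminal, basal in both groups with no overlap between neighbours, and Ocln kept it in te2. Cldn7 in sham read 839 and 932 CPM in proximal cells, 262 and 315 in luminal cells, and 22.1 and 65.5 in basal cells. Ocln in sham read 40.6 (3 counts) and 46.1 in proximal cells and 16.8 and 12.8 in luminal cells. Only 1 Ocln count was found in all sham basal cells. There 3 counts would be 66.2 and 16.4 CPM, so the place of sham basal cells in the order of Ocln is not resolved. Cldn10, a claudin with isoforms that form ion-selective pores, read 663 and 509.6 in sham proximal cells and 128 and 123 in sham luminal cells.

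Cldn4 broke from this order. It was highest in basal cells in each of the 4 libraries, at 419.6 and 262 CPM in sham and 278 and 284 in te2. Proximal cells followed at 135 and 108 in sham and 86.9 and 96.4 in te2, and luminal cells read 54.5 and 49.1 in sham and 62.8 and 54.6 in te2. Sham luminal and sham fibroblast levels of Cldn4 overlapped, the latter at 53.8 and 39.3. Tjp1 was the least tied to a class, with 110.4 and 98.2 in sham basal cells, 53.8 and 118 in sham fibroblasts, 81.2 and 61.5 in sham proximal cells, and its lowest level, 26.9 and 29.3, in sham luminal cells. Cdh1 was highest in proximal cells at 284 and 271 in sham and 293 and 338 in te2, and its basal values of 110.4 and 142 in sham lay just above its luminal values of 106 and 83.6. These orders describe the classes and carry no test.

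**Figure D1:**
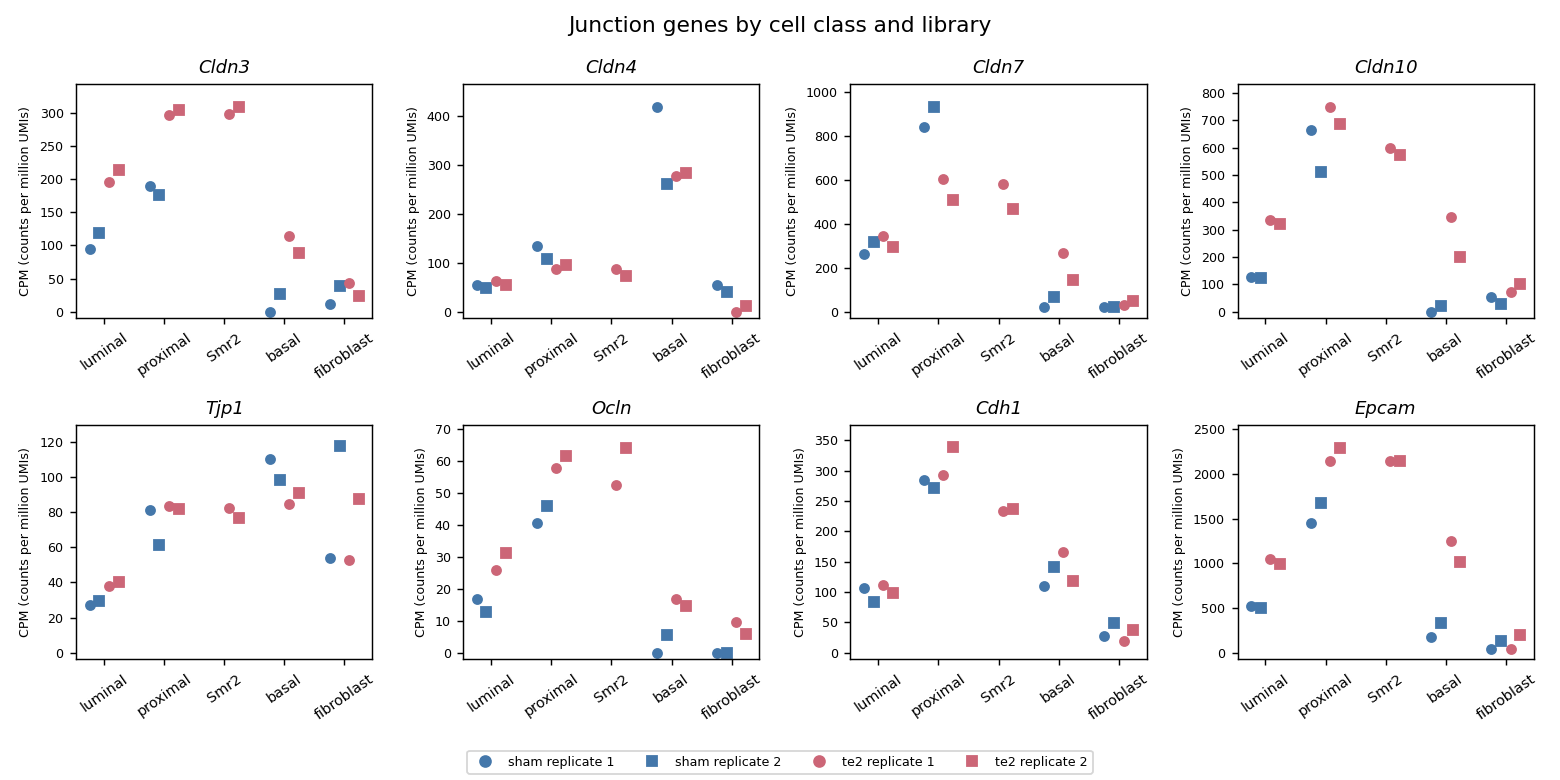
Each panel plots 1 gene, with CPM (scaled to all UMIs of the class) on the vertical axis, the cell classes along the horizontal axis, and 1 point for each library; Smr2 cells were found in te2 only. Epcam, Cldn7 and Ocln are highest in proximal and Smr2 cells and Cldn4 in basal cells, and the te2 points of Cldn3, Cldn10, Ocln and Epcam lie above the sham points in luminal cells.

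In luminal cells, the secretory cells of the lobe, Cldn3, Cldn10, Ocln and Epcam rose in te2, and Cldn4, Cldn7, Tjp1 and Cdh1 did not pass the test. Of the 8 genes 4 rose, against 18.0% of the 10976 genes tested (32.1% in either direction, 14.1% lower). Cldn10 read 128 and 123 CPM in sham and 335 and 319.8 in te2. The groups lay far apart with no overlap, and the change was 1.32 ± 0.13 on the log2 scale (SE, n = 2 a group, edgeR adjusted p = 4.99e-06). Epcam read 520.5 and 503 in sham and 1044 and 995 in te2, and rose by 0.94 ± 0.13 (adjusted p = 9.29e-05). Cldn3, a sealing claudin, read 95.2 and 119 in sham and 196 and 215 in te2, with no overlap, and rose by 0.88 ± 0.14 (adjusted p = 0.000318). Ocln was low, at 16.8 and 12.8 against 25.9 and 31.1, and its rise of 0.92 ± 0.21 passed in edgeR (adjusted p = 0.00459) but not in DESeq2 (adjusted p = 0.0667).

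The other 4 luminal values were close in the 2 groups or fell short of the threshold. Cldn7 read 262 and 315 in sham and 342 and 295 in te2, which overlapped (log2 change 0.08 ± 0.13, adjusted p = 0.67). Cdh1 read 106 and 83.6 against 112 and 98, also overlapping (0.09 ± 0.15, adjusted p = 0.678). Cldn4 read 54.5 and 49.1 against 62.8 and 54.6 (0.12 ± 0.14, adjusted p = 0.558). Tjp1 was higher in each te2 library, 37.9 and 40.0 against 26.9 and 29.3, at 0.42 ± 0.16 and an adjusted p of 0.0581. It passed with scaling by totals alone and with no filter on low counts (lowest adjusted p 0.0377). The share of luminal cells with at least 1 UMI told the same of Epcam once each cell was thinned to 500 UMIs, at 21.7% and 23.3% in sham and 42.9% and 36.7% in te2 (54.5% and 63.2% against 94.6% and 95.1% unthinned). In fibroblasts, which should lack Epcam, the thinned share was 1.69% to 5.10%, at median depths of 954 to 2507 UMIs a cell against 1551 to 10359 in luminal cells. Genes that mark proximal luminal cells moved with these values: 8 of 9 were detected in the sham luminal cells, Psca being at 0, and 9 of 9 in te2, at a summed 297 and 327 CPM against 2384 and 2459. At least 0.1% of UMIs came from the proximal class genes in 29 of the 392 and 32 of the 485 te2 luminal cells. With such cells left out of both groups, the rises were 1.25 for Cldn10, 0.90 for Epcam, 0.87 for Cldn3 and 0.92 for Ocln. With them in, these were 1.32, 0.94, 0.88 and 0.92. The part of the proximal markers in the luminal rises was not tested.

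Upstream sequence is shown for the genes that rose together in luminal cells and have a clear call (Cldn3, Cldn10, Epcam), and for Cldn4, which lies on the same chromosome as Cldn3 and did not pass the test. RefSeq's table matched 7 of the 8 genes, with 10 start sites; Cdh1 was unmatched. Each sequence is the 250 bases before the start, 5′ to 3′ on the gene's strand, in GRCm38.p6 coordinates (the counts were made on GRCm39, so these coordinates are of the table alone). Capitals mark every CACCTG, the E-box that Snail and Zeb repressors are known to bind, and every GGGCGG, the GC box of Sp factors, on either strand.
Cldn3 (chr5:134985964-134986213, + strand): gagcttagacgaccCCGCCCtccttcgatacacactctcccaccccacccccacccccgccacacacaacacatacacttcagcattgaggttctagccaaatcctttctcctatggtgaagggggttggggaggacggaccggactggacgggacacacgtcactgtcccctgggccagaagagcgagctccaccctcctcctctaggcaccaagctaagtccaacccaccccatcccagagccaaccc
Cldn4 (chr5:134946935-134947184, - strand): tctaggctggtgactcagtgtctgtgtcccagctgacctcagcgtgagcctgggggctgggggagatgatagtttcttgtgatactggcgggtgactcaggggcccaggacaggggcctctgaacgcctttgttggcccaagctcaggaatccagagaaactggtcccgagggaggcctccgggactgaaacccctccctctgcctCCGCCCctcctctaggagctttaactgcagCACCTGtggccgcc
Cldn10, upstream start (chr14:118787621-118787870, + strand): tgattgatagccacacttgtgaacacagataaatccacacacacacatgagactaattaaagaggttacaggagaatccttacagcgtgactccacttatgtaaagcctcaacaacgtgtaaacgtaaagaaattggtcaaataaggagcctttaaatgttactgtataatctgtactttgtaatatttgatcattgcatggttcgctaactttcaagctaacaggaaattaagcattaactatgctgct
Cldn10, downstream start (chr14:118854700-118854949, + strand): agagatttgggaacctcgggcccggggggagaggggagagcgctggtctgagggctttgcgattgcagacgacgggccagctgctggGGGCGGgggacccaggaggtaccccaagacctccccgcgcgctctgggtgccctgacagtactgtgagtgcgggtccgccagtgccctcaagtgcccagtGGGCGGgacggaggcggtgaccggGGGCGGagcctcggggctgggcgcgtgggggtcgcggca
Epcam (chr17:87635729-87635978, + strand): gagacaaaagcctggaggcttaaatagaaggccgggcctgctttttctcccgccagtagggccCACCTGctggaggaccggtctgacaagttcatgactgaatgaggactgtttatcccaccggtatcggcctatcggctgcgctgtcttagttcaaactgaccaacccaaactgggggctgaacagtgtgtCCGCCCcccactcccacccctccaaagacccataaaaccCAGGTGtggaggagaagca
In a separate RefSeq list of genes, none lay wholly between Cldn4 and Cldn3, which are read from opposite strands. The window of Epcam held 2 matches to CACCTG, that of Cldn4 held 1, and those of Cldn3 and Cldn10 held no match. The downstream start of Cldn10 held 3 matches to GGGCGG and its upstream start none. CACCTG was present in 17.2% of all 32851 windows of this length and GGGCGG in 32.7%. Of the 7 matched genes, 4 and 7 had them at some start. The latter counts are by gene over 10 starts and not by window, so they cannot be set against those shares. 3′ counts do not tell the 2 starts of Cldn10 apart.

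In basal cells Cldn10, Epcam, Cldn3 and Cldn7 rose in te2, 4 of 8 genes against 4.94% of the 9132 genes tested (7.71% in either direction, 2.77% lower). Cldn10 was nearly absent from sham basal cells, with 0 counts in replicate 1 (a floor of 3 counts there allows up to 66.2 CPM) and 4 counts, or 21.8 CPM, in replicate 2. In te2 it reached 347 and 201 CPM, a rise of 4.0 ± 0.54 on the log2 scale (edgeR adjusted p = 8e-07). The call is firmer than the size, which rests on those 4 sham counts. Without sham replicate 2 the sham side of Cldn10 is a count of 0, and the te2 mean was at least 4.14-fold higher than the floor of 3 counts in that library; over the other 14 alternatives the log2 change ran from 2.86 to 5.90. Epcam read 177 and 338 in sham and 1250.5 and 1019.7 in te2, with no overlap, and rose by 1.99 ± 0.29 (adjusted p = 2.94e-06). Cldn3 read 0 and 27.3 against 114 and 87.9 (2.23 ± 0.55, adjusted p = 0.00601), and Cldn7 read 22.1 and 65.5 against 266 and 144 (1.89 ± 0.43, adjusted p = 0.00268). The sham values of Cldn3 and Cldn7 rest on 5 and 13 counts, and both calls were lost without sham replicate 1, without sham replicate 2 and without te2 replicate 1 (adjusted p from 0.0517 to 0.151), while Cldn10 and Epcam passed in each of those fits. Cldn4, the claudin that marked this class, overlapped between the groups (-0.05 ± 0.25, adjusted p = 0.94), as did Cdh1, at 110.4 and 142 against 167 and 118 (0.12 ± 0.32, adjusted p = 0.888). Tjp1 was slightly lower in both te2 libraries, 84.7 and 90.8 against 110.4 and 98.2 (-0.16 ± 0.35, adjusted p = 0.852). For Ocln 51 te2 counts stood against 1 sham count, a ratio of 3.58 with a 95% counting interval of 0.615 to 144.

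The te2 basal class held a subset of cells in which the basal genes and the proximal genes were found together. At least 0.1% of UMIs came from Krt4, Wfdc2 and Cxcl17 in 107 of the 591 and 77 of the 573 te2 basal cells, against 0 of 44 and 7 of 160 sham basal cells. In that te2 subset Cldn3 read 332 and 317 CPM, and in the remaining te2 basal cells 23.7 and 26.0, next to 0 and 17.2 in the same remainder of sham. Cldn7 read 648 and 460.4 in the subset and 108 and 58.8 in the remainder, next to 22.1 and 63.2 in sham. The remainder of the te2 cells thus overlapped sham for Cldn7 and lay just above it for Cldn3. Cldn10 read 867 and 673 in the subset and still 132 and 73.7 in the remainder, above the 0 and 17.2 of sham. Epcam read 2377 and 2241 in the subset and 786 and 689.9 in the remainder, above the 177 and 310.4 of sham. Cldn4 ran the other way, at 139 and 132 in the subset and 335 and 324 in the remainder. Cdh1 was higher in the subset, at 327 and 248 against 100.4 and 83.4.

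With these cells left out of the basal class, Cldn10 changed by 2.93 ± 0.67 (edgeR adjusted p = 0.00327) and Epcam by 1.47 ± 0.25 (adjusted p = 8.12e-05), while Cldn3 (0.92 ± 0.82, adjusted p = 0.576) and Cldn7 (0.64 ± 0.48, adjusted p = 0.475) no longer passed. A basal threshold of 0.4% in place of 0.2% gave the same division, with Cldn10 at 2.86 and Epcam at 1.5 past the test. The 9 proximal markers summed to 132 CPM (4 detected, with Krt4 and Psca among those at 0) and 857 CPM (9 detected) in sham basal cells and to 2588 and 2089 in te2. The basal markers themselves summed to 4770 CPM and 5397 CPM in sham (7 of 8 detected, Dsc3 at 0) and to 10645 and 13598 in te2 (8 of 8). That list includes Krt5, Krt14 and Krt15, which defined the class, so its sum was in part set by the rule. The luminal markers summed to 36744 and 35910 CPM (6 and 8 of 10 detected) in sham against 4840 and 7566 in te2. Subtracting each library's luminal profile from its basal sum left the 4 calls in place, with Cldn10 at 5.90 and Epcam at 2.26. These 3 settings were chosen after the values had been seen. The depth of the te2 subset was also higher, a median of 3197 and 3624 UMIs a cell against 2170 and 2617 in the remainder. With the doublets that scrublet called left out, the 4 basal calls stayed past the test. The part of these markers and of depth in the basal changes was otherwise not tested.

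**Figure D2:**
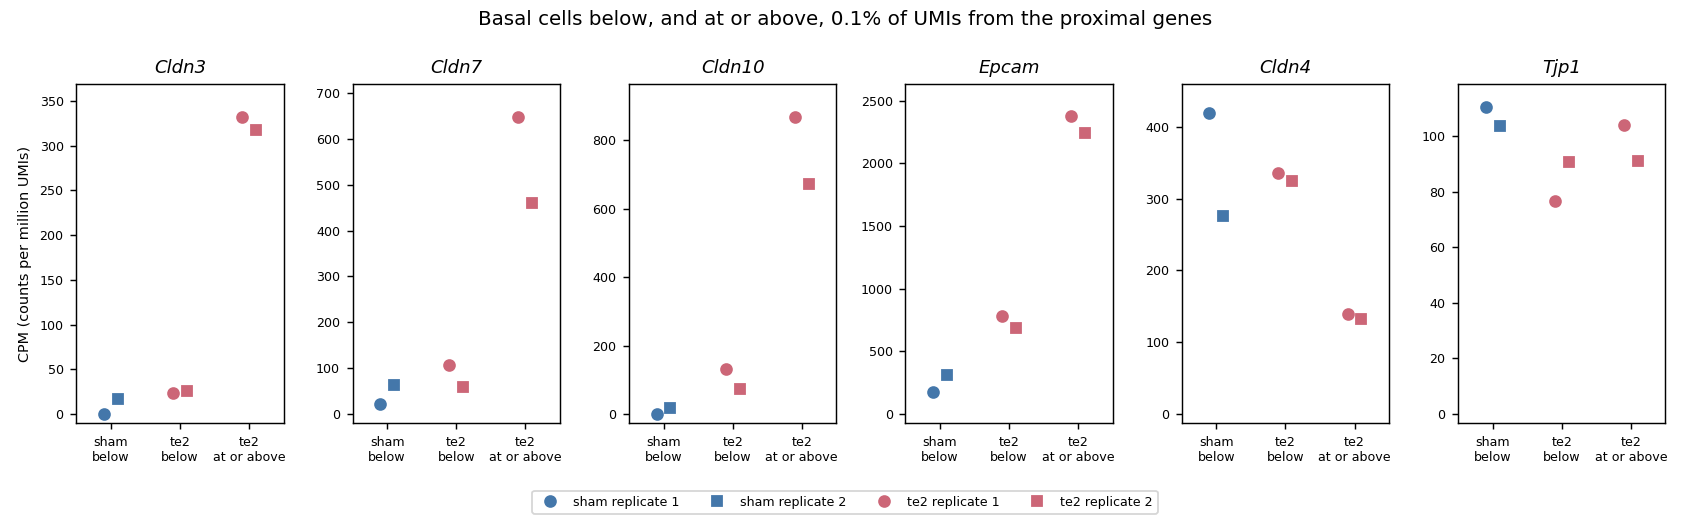
Basal cells below and at or above 0.1% of UMIs from Krt4, Wfdc2 and Cxcl17: each panel plots the CPM of 1 gene, with 1 point for each library (the 7 sham cells at or above the threshold are not drawn). Cldn3 and Cldn7 of te2 cells below the threshold lie near the sham points, Cldn10 and Epcam lie above them, and Cldn4 is lower in the te2 cells at or above the threshold.

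In proximal cells Cldn3 rose and Cldn7 fell, 2 of 8 genes against 11.3% of the 9830 genes tested (6.03% higher, 5.30% lower). Cldn3 read 189 and 177 CPM in sham and 297 and 304 in te2, with no overlap (log2 change 0.77 ± 0.22, edgeR adjusted p = 0.00807). Cldn7 read 839 and 932 in sham and 602 and 507 in te2, also with no overlap (-0.64 ± 0.21, adjusted p = 0.0261). Epcam, at 1447 and 1677 against 2143 and 2290.1, did not overlap either but failed the test (0.55 ± 0.28, adjusted p = 0.205). Cldn10 read 663 and 509.6 against 749 and 686 (0.42 ± 0.22, adjusted p = 0.236), and Ocln read 40.6 and 46.1 against 57.9 and 61.8 (0.42 ± 0.34, adjusted p = 0.501). Cdh1 stood at 284 and 271 against 293 and 338 (0.23 ± 0.21, adjusted p = 0.552), higher in both te2 libraries. Tjp1 (0.36 ± 0.29, adjusted p = 0.493) stood at 81.2 and 61.5 against 83.3 and 81.9, and Cldn4 (-0.28 ± 0.25, adjusted p = 0.538) at 135 and 108 against 86.9 and 96.4. Neither call is firm: Cldn3 (adjusted p = 0.17) and Cldn7 (adjusted p = 0.292) failed in DESeq2, and both failed without sham replicate 2 and without either te2 replicate. Without sham replicate 2, the only sham animal with more than 35 proximal cells, Epcam passed in their place (0.89, adjusted p = 0.00108).

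**Figure D3:**
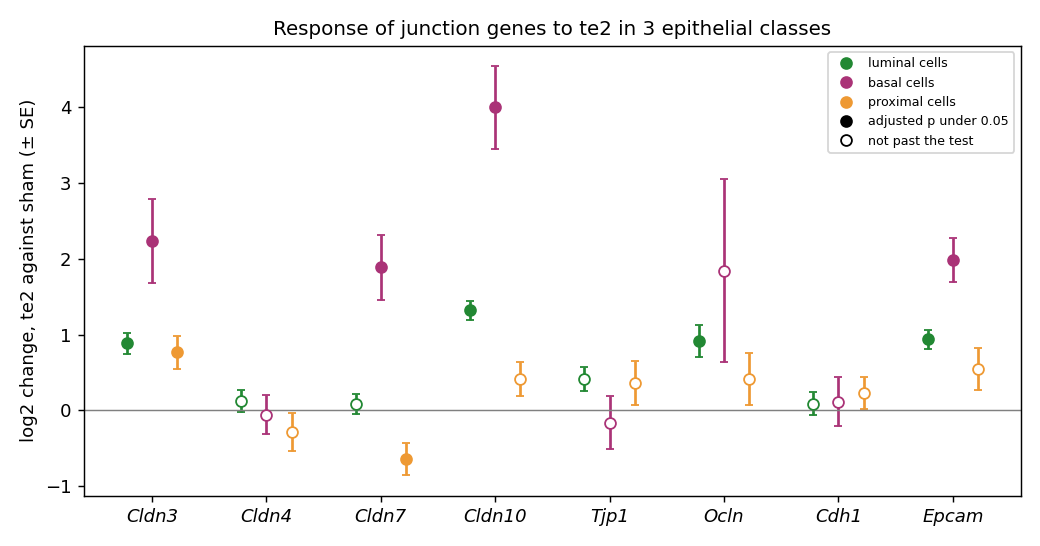
The log2 change of te2 against sham (vertical axis, with its SE) is plotted for the 8 genes in luminal, basal and proximal cells, each from 2 libraries a group; filled points have an edgeR adjusted p under 0.05. The basal changes of Cldn10 (4.0), Cldn3 (2.23), Epcam (1.99) and Cldn7 (1.89) are the highest filled points, Cldn4 and Cdh1 lie between -0.28 and 0.23 in the 3 classes, and Cldn7 is below 0 in proximal cells alone.

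Smr2 cells, seen only in te2 (225 and 94 cells), carried the same genes at nearly the levels of the proximal cells of their own libraries. Epcam read 2142 and 2139 CPM, next to 2143 and 2290.1 in proximal cells, and Cldn7 read 581 and 468 next to 602 and 507. In a fit with the library as a block, Cdh1 alone of the 8 was called, lower by 0.35 ± 0.10 on the log2 scale (edgeR adjusted p = 0.0277), against 2.64% of the 10445 genes tested. Cdh1 read 234 and 237 in Smr2 cells and 293 and 338 in proximal cells; the call was lost in DESeq2, with equal totals and with no block. Cldn10 read 599 and 573 next to 749 and 686 (-0.24 ± 0.09, adjusted p = 0.187).

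In fibroblasts, where most of these genes were low, 3 of the 8 genes passed the filter on low counts (Cldn10, Tjp1 and Epcam) and edgeR called 0 of them, also 0 at an unadjusted p under 0.05, against 2.07% of the 4450 genes tested; DESeq2 gave these 3 no adjusted p. Cldn10 read 53.8 and 29.4 CPM in sham and 71.7 and 102 in te2 (0.85 ± 0.41, adjusted p = 0.31). Epcam read 38.5 and 137 against 43.0 and 198, and was called without sham replicate 2 and without te2 replicate 1. Ocln had 0 counts in both sham libraries, where 3 counts would be 11.5 and 29.4 CPM.

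The difference of the te2 response between classes was tested in a single fit over luminal, basal and proximal sums with the library as a block; the median over all genes was 0.23 for basal minus luminal, 0.09 for proximal minus luminal and -0.17 for proximal minus basal. Basal exceeded luminal in the response of Cldn7 (by 1.98 ± 0.41 on the log2 scale, adjusted p = 0.000306), Cldn10 (2.76 ± 0.60, adjusted p = 0.000914) and Epcam (1.21 ± 0.28, adjusted p = 0.00215), 3 of 8 against 1.61% of 12329 genes. Those 3 differences were no longer called with the cells that reached the proximal share left out (0.74, 1.75 and 0.70, adjusted p from 0.25 to 0.607), nor without te2 replicate 1. Without sham replicate 2 only Epcam was called, and without te2 replicate 2 Epcam was lost. Proximal lay below luminal for Cldn7 (-0.64 ± 0.19, adjusted p = 0.0248) and Cldn10 (-0.86 ± 0.20, adjusted p = 0.00161), against 4.49% of genes, and both were lost without sham replicate 2 and without either te2 replicate. Proximal lay below basal for Cldn10 (-3.61 ± 0.56, adjusted p = 7.94e-08), Cldn7 (-2.61 ± 0.40, adjusted p = 4.33e-08) and Epcam (-1.51 ± 0.28, adjusted p = 2.63e-05), against 1.62% of genes. Of these, the call of Cldn10 held in every alternative run, though without sham replicate 2 its difference is against a basal sham count of 0 and has no upper bound. Cldn7 was lost with the proximal-share cells left out (-1.37, adjusted p = 0.112), and Epcam without te2 replicate 1. For Cldn3 the difference between basal and luminal did not pass (1.55 ± 0.61, adjusted p = 0.215), nor that between proximal and luminal (0.02 ± 0.24, adjusted p = 0.994). For Cldn4, Tjp1, Ocln and Cdh1 no difference between classes passed in edgeR, with unadjusted p from 0.18 to 0.923.

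Around the 8 genes, 109 further junction genes in 8 lists were examined, 98 of them measured. In luminal cells 76 were tested, of which 14 rose and 14 fell, shares of the tested genes near the 18.0% and 14.1% of all genes. Their median log2 change was -0.04, against -0.01 over all genes and 0.65 over the 8. The 8 and the lists were chosen with earlier results of these data known, so this contrast carries no test. The group of Epcam relatives and proteases leaned upward, with 5 of 8 higher and 1 lower. Cd9 rose by 2.10 ± 0.15 (adjusted p = 3.49e-07) and Tspan8 by 1.95 ± 0.15 (adjusted p = 6.59e-07); both are tetraspanins, membrane organisers of the kind known to sit with EpCAM. Cd9 went from 51.8 and 52.8 CPM to 212 and 252, and Tspan8 from 25.9 and 25.1 to 109 and 96.8. Prss8, a membrane serine protease, fell by 0.78 ± 0.17. Of 13 other claudins listed 6 were measured and 3 were tested, of which 2 were lower in edgeR and DESeq2 called 1. Cldn8 was among the lower ones, with 28.6 and 36.3 CPM in sham and 5.71 and 4.65 in te2 (-2.72 ± 0.24, edgeR adjusted p = 2.43e-06). Gap junction genes, which join the cytoplasm of neighbours, had 3 lower and 1 higher of 4 tested, with Gjb1 (connexin 32) at 59.9 and 85.7 against 24.7 and 22.2 (-1.70 ± 0.18, adjusted p = 1.08e-05).

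Of 19 other tight junction genes in luminal cells 3 rose, with the adhesion receptor Cxadr at 0.79 ± 0.21, and 2 fell, with cingulin (Cgn), an adaptor of ZO proteins, at -0.96 ± 0.14 (111 and 119 CPM against 67.3 and 56.8). Cxadr was lost in DESeq2 and without te2 replicate 2. Of 11 polarity genes 3 rose, among them Crb3 of the apical Crumbs complex (0.94 ± 0.16), and 1 fell. Of 13 adherens junction genes 1 fell, and of 8 desmosome genes 2 fell, led by the desmosomal cadherin Dsg2 (-0.82 ± 0.16). Among 10 regulators of the epithelial and mesenchymal states 2 rose, Klf5 (1.07 ± 0.19) and Ehf (0.88 ± 0.14), and 2 fell. Those were the splicing factor Esrp2 (-1.0 ± 0.16) and, at a low level, the repressor Zeb1 (-1.16 ± 0.41, edgeR adjusted p = 0.0414).

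In basal cells 69 of the 109 were tested, with 3 higher and 4 lower. Of all genes tested there, 4.94% were higher and 2.77% lower. Cd9 (1.54 ± 0.28, adjusted p = 0.000139) held in each alternative that could be run. Ehf (1.29 ± 0.31) was lost without either sham replicate or te2 replicate 1. Spint2, an inhibitor of membrane proteases (1.28 ± 0.28), was lost without the proximal-share cells and without sham replicate 2 or either te2 replicate. Actn1 (-1.37 ± 0.31), an actin crosslinker, Llgl2 (-1.90 ± 0.56), a basolateral polarity gene, Amotl1 (-0.97 ± 0.23) and Perp (-0.72 ± 0.22), a desmosome gene, were lower, and each was lost without te2 replicate 2, among other libraries. In proximal cells 72 were tested, with 3 higher (Cd9 0.83, Perp 0.68 and Ehf 0.64, each lost without either te2 replicate) and 7 lower. The shares over all genes tested in proximal cells were 6.03% higher and 5.30% lower. The 7 lower ones included Cgn, at 189 and 154 CPM against 67.2 and 56.1 (-1.35 ± 0.24, adjusted p = 8.11e-07), which failed only without sham replicate 2. Pkp4 (-1.11 ± 0.23), Cd44 (-1.06 ± 0.30), Actn4 (-0.88 ± 0.19), Actn1 (-0.75 ± 0.24) and Jup (-0.65 ± 0.21) were also lower, each call being lost in DESeq2 and without te2 replicate 2. Against proximal cells, Smr2 cells had 4 of 73 lower: Cldn8 (-1.80 ± 0.38), Ildr1 of tricellular junctions (-0.54 ± 0.16), Klf5 (-0.38 ± 0.10) and Ehf (-0.33 ± 0.10), where 1.33% of all genes tested were lower. The 4 calls were lost with no block, and those of Ildr1, Klf5 and Ehf also with equal totals. Cldn8 had only 12 and 3 counts in Smr2 cells, and only 7 of the 9 alternatives gave a result for it. DESeq2 called 0 of the 73, with 61 given no adjusted p. In fibroblasts 26 were tested and edgeR called 0, with 6 at an unadjusted p under 0.05 and 0 called in DESeq2. Over all 4450 genes tested in fibroblasts, edgeR called 2.07%.

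**Figure D4:**
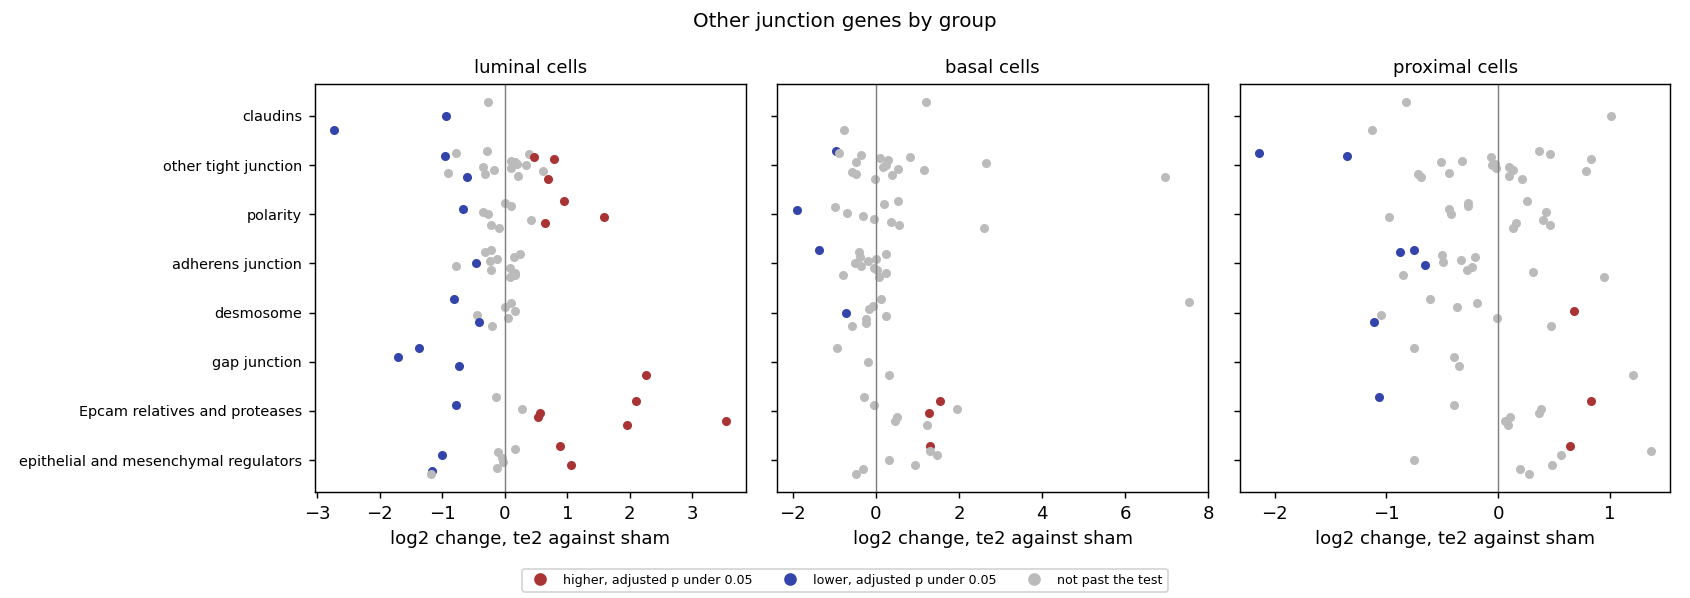
The other junction genes are plotted by list (rows) against their log2 change of te2 against sham (horizontal axis) in luminal, basal and proximal cells, 1 point a gene; red and blue points passed the test. In luminal cells 14 points are red and 14 blue, with the Epcam relatives mostly to the right and 3 of 4 gap junction genes to the left.

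Over the 16 sums of luminal, basal, fibroblast and proximal cells the levels of the 8 genes were alike to different degrees. On log2(CPM + 1), Pearson's r was 0.95 between Cldn3 and Cldn10, 0.94 between Cldn7 and Ocln, and 0.94 between Cdh1 and Epcam, and as low as 0.59 between Cldn10 and Cdh1. Cldn4 had r = 0.05 with Cldn3 and 0.02 with Cldn10, but 0.66 with Cdh1 and 0.55 with Epcam. Tjp1 ran from -0.17 with Cldn7 to 0.28 with Cldn4. The 16 points share libraries, depth and treatment, so these values describe the points and carry no test. Some points are counts of 0: Cldn3, Cldn10 and Ocln in basal cells of sham replicate 1, where 3 counts would be 66.2 CPM, and Ocln in both sham fibroblast sums. The part of those points in r was not tested. Among 6866 genes with a mean of at least 20 CPM, the gene most like Epcam was Spint2 (r = 0.98), then Arhgef5 and Dynll2. The nearest to Cldn3 were Cobl, Rab11fip1 and Fam174b, to Cldn7 Cd24a, Tspan1 and Slc25a3, and to Cldn10 Adipor2, Atp5o and Shroom3. Ocln lay closest to Stard3, Enpp5 and Ildr1, and Cdh1 to Cdk6, Ivns1abp and Chd9. Cldn4 was nearest to Eps8l2 (r = 0.97), Kcnma1 and the basal integrin Itgb4, and Tjp1 had no gene above r = 0.81, that of Lcn2, followed by Tmem176a and Stxbp3.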

How the data were processed

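The authors deposited 1 table of raw UMI counts for each library, from 10x Genomics 3′ v3.1 libraries; the submitters' processing notes name kallisto 0.46.1, bustools 0.39.4, R 4.3.2, Seurat 5.0.1 and GRCm39. The genes and lists were chosen with earlier results of these data known. Cells were filtered and classed as described, doublets were called with scrublet in scanpy 1.11.5 (97 cells, left in), and counts were summed per class and library. edgeR 4.0.16 (R 4.3.3) tested each class with TMM factors, filterByExpr and a quasi-likelihood F test, two-sided, with Benjamini-Hochberg adjustment over all genes tested and a threshold of 0.05; SE is the log2 change over the root of F. Intervals cover counting error only. The other junction genes named are at most 6 called genes in each direction and class, those of largest change whose average log2 CPM reached 4. Zeb1 in luminal cells, below that level, is named beside them. Likeness named the 3 highest genes for each of the 8. In simulated data all genes of a comparison had the same spread, and 100 of the better expressed genes were changed by each fold. Of the 2-fold changes, 97% were recovered in the luminal comparison (10729 genes run) and 49% in the proximal comparison (9474). In the basal comparison (8641) 21% were recovered (80% of 4-fold changes), and in the fibroblast comparison (4034) 26%. These shares do not describe genes of low level, such as Ocln in luminal cells, or genes of wider spread. Alternatives were DESeq2 1.42.0, other scaling, filters, thinning, class rules, a replicate block and leaving out each library.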

Additional observations from a re-analysis of the deposited data

Results flagged for a closer look

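For 8 pairs of gene and classes the response to te2 differed between cell classes by the test of the difference itself. Cldn7 differed by 1.98 on the log2 scale for basal minus luminal cells, by -0.64 for proximal minus luminal cells and by -2.61 for proximal minus basal cells. Cldn10 differed by 2.76, -0.86 and -3.61 in the same order. Epcam differed by 1.21 for basal minus luminal cells and by -1.51 for proximal minus basal cells. The 3 comparisons share libraries and class sums. With the cells that reached the proximal share left out, the basal minus luminal differences were no longer called, nor was that of Cldn7 for proximal minus basal. Those for proximal minus luminal were not firm when a library was left out, as given above. The sham basal sums behind the first and last of them hold 13 counts of Cldn7, 4 of Cldn10 and 70 of Epcam.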

How the results depend on the processing

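The luminal calls of Cldn3, Cldn10 and Epcam held in each of the 14 alternatives run, and that of Ocln in all but DESeq2. Of the members' values under alternatives, 666 kept their side of the threshold, 44 lost a call and 7 gained one, and none reversed as a call. For the other junction genes named 351 were kept and 89 lost, and Jup in proximal cells ranged from -0.83 to 0.22 over the fits that leave out a library, the latter without sham replicate 2 (adjusted p = 0.811). The sums of sham basal and sham proximal cells were small, and the part of their depth in the lost calls was not tested.

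The number of genes called moved with the tool and the depth. DESeq2 called 1662 genes in luminal, 233 in basal and 232 in proximal cells and 30 between Smr2 and proximal cells (3520, 704, 1114 and 276 in edgeR), with 0 of the 8 genes in proximal cells and 0 between Smr2 and proximal cells; in basal cells it gave Cldn3 no adjusted p. Equal totals gave 122 genes in basal cells with 1 of the 8 (Cldn3, Cldn7 and Cldn10 then fell under the filter), 51 in fibroblasts, 126 in proximal cells with 1, and 5 between Smr2 and proximal cells with 0. With no filter on low counts, 249 genes were called in fibroblasts (92 with it) with 1 of the 8, and 1 of the 8 in proximal cells. Cells with at least 1000 UMIs gave 56 genes in fibroblasts. A basal share of at least 0.4% gave 206 genes with 2 of the 8. Leaving out the luminal and basal cells with the proximal share left 2 of the 8 in basal cells and 0 in the difference between basal and luminal. Keeping Smr2 cells in the proximal class left 1 of the 8.

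Leaving out each library in turn gave 145 to 369 genes and 2 to 4 of the 8 in basal cells, 107 to 211 and 0 to 1 in fibroblasts, and 212 to 1211 and 0 to 2 in proximal cells. For the differences it gave 41 to 204 genes and 0 to 3 of the 8 for basal minus luminal, 94 to 530 and 0 to 3 for proximal minus luminal, and 30 to 181 and 2 to 3 for proximal minus basal. Where 1 library was left in a group it was assumed to vary like the others.

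Scaling by totals alone moved the split of calls to 52 higher and 49 lower in fibroblasts (34 and 58 with TMM) and to 83 and 197 between Smr2 and proximal cells (137 and 139). For basal minus luminal it gave 103 and 133 (136 and 63 with TMM, 111 and 100 with RLE factors) and moved the median of all genes from 0.23 to 0.01. For proximal minus luminal it gave 218 and 477 (265 and 288), and moved the median from 0.09 to -0.05. For proximal minus basal RLE factors gave 59 and 136 (39 and 161) and moved the median from -0.17 to -0.05. The called members kept their direction under each scaling. Fewer genes tested or fewer samples can change the counts by construction; otherwise the cause was not tested.

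The replicate numbers do not pair the animals in the labels, and deviations of same-numbered libraries correlated at r = -0.04 to 0.06. With the replicate block 442 genes were called in basal and 657 in proximal cells, with 0 of the 8 in the latter (Cldn3 adjusted p = 0.0643, Cldn7 adjusted p = 0.239); without the block by library, 11 genes and 0 of the 8 were called between Smr2 and proximal cells.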
